A study of Mus musculus with 18 samples.

Results

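The genes followed through skeletal muscle aging were the 3 DNA methyltransferases that write CpG methylation (Dnmt1, Dnmt3a and Dnmt3b) and the 3 TET dioxygenases that start its removal (Tet1, Tet2 and Tet3). They were taken by name and make up 6 of the 23420 genes in the RNA-seq table. The hindlimb muscle came from untreated female C57BL/6J mice killed at 2 months (2 m, young), 20 months (20 m, aged) or 28 months (28 m, superaged). Each age had 3 RNA-seq libraries, and each library was 1 mouse. For methylated DNA, captured with a methyl-CpG-binding domain (MBD-seq), the DNA of the 3 mice of an age was pooled. Splenic T cells gave 1 library per age and muscle 2, from a repeated capture, but the deposited table holds 1 column per age and tissue, and which muscle libraries its columns hold is not stated. All 6 genes passed the filter for testing, a mean normalized read count of at least 10 over the 9 libraries, as did 13178 genes in all.

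DNMT1 copies methylation onto the new strand after DNA replication, while DNMT3A and DNMT3B methylate CpGs that carry none. The TET enzymes oxidize methylated cytosine, and the oxidized base is then diluted by replication or excised and repaired. Muscle fibres no longer divide, so in them a mark is changed mainly by the de novo writers and the erasers.

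The tissue label was checked against 8 genes of the contractile apparatus and energy supply of muscle fibres (Acta1, Ckm, Mb, Myh4, Myh1, Tnnt3, Pvalb and Atp2a1). All 8 were above 0 in every library, and together they took between 11.3 and 19.6% of the normalized count on genes. Reads on genes ranged from 20203833 to 71115244 per library. The libraries numbered 3 stood apart at every age: the 100 most abundant genes took 51.2 to 53.4% of their normalized count, against 61.2 to 64.8% in the other 6. The first 2-m library held more RNA of other tissues, with a summed normalized count of 14038 for 10 marrow and red blood cell genes, against 1754 to 3937 in the other 8 libraries, and of 2077 for 8 bone and cartilage genes, against 12.4 to 120.6. In each of these lists 1 gene (Hba-a1 and Matn1) was listed at 0 throughout. In bulk tissue, fewer cells of a type and less RNA per cell cannot be told apart.

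Because CpGs are what these enzymes act on, the DNA just upstream of the 3 genes that fell with age is shown, as the nearest 250 bases before the start of the longest RefSeq transcript that overlap no annotated exon. Each stretch is printed 5′ to 3′ on the strand of the gene, with every CpG in capitals (GRCm38 sequence of RefSeq).
Dnmt3a, chr12:3806730-3806979, plus strand: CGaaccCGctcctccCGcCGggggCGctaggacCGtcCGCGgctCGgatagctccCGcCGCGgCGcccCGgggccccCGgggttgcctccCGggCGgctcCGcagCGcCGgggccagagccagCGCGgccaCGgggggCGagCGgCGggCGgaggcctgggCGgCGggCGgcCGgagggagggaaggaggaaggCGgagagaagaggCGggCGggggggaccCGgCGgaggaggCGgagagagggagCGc
Tet3, chr6:83456468-83456717, minus strand: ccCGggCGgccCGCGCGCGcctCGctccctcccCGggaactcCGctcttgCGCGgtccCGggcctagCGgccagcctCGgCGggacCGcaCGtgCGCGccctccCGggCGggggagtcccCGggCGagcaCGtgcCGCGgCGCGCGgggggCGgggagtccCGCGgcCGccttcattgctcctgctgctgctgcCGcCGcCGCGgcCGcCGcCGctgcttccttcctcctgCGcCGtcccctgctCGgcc
Tet1, chr10:62887513-62887762, minus strand: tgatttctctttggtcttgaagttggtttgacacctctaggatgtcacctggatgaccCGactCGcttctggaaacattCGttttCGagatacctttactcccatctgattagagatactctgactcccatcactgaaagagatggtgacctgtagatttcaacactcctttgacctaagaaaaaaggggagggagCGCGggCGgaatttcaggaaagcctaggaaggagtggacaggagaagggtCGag
The motif counted was CG, which reads the same on both strands. The stretches of Dnmt3a and Tet3 held 38 and 43 CpGs, whereas that of Tet1 held 8. Among 32817 RefSeq promoters, the 250 bases before the start held a median of 6 CpGs, and 92.1% held at least 1. As many CpGs as at Dnmt3a were found in 1.88% of them, as many as at Tet3 in 0.713% and as many as at Tet1 in 43.0%. By this count the Dnmt3a and Tet3 stretches are among the most CpG-dense, and the Tet1 stretch lies near the median. The windows are not alike, as the stretches lie 1 to 250 (Dnmt3a), 76 to 325 (Tet3) and 189 to 438 (Tet1) bases upstream. Closer to Tet1, the 500-bp bin that holds its start and the next bin downstream hold 28 and 38 CpGs.

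Among the writers, Dnmt3a was the most abundant at every age and the only one that passed the test. Its gene lies on chromosome 12 (chr12:3806980-3914443, GRCm38, plus strand). Normalized read counts of Dnmt3a were 4005, 4920 and 3620 in 2-m muscle, 2636, 3046 and 2481 in 20-m muscle, and 2687, 2478 and 2125 in 28-m muscle. Every older library lay below every young one, a pattern that 9.6% of the tested genes showed. The mean fell from 4182 ± 668 (SD, n = 3) to 2721 ± 292 and 2430 ± 284. On the log2 scale of the count plus 1, Dnmt3a fell by 0.61 ± 0.12 (SE) from 2 to 20 months and by 0.78 ± 0.12 from 2 to 28 months (limma, adjusted p = 0.0055 and 0.0014 over all tested genes). The 20-m call was lost when each library was rescaled to the same sum (limma, adjusted p = 0.061). Between 20 and 28 months the log2 difference was -0.16 ± 0.12 (limma, adjusted p = 0.69).

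Dnmt1, the maintenance enzyme, lies on chromosome 9 (chr9:20907206-20959888, minus strand). Its normalized counts were 477, 396 and 365 at 2 m, 454, 410 and 408 at 20 m, and 427, 414 and 419 at 28 m, so that the 3 ages overlapped. The log2 difference from 2 m was 0.05 ± 0.12 at 20 m and 0.03 ± 0.12 at 28 m (limma, adjusted p = 0.84 and 0.89). Dnmt1 did not pass the test in any contrast, and its means, 413 ± 58, 424 ± 26 and 420 ± 6.4 (SD, n = 3), differed by less than the SD of the 2-m libraries.

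Dnmt3b, the second de novo enzyme, was scarce in muscle (chr2:153649449-153687730, plus strand). It had 15.6, 15.9 and 18.0 normalized counts at 2 m, 9.3, 23.6 and 24.0 at 20 m, and 45.5, 22.1 and 28.3 at 28 m. These rest on only 5 to 44 reads per library. The 28-m libraries lay above the 2-m libraries, but the log2 difference of 0.85 ± 0.49 did not pass the test (limma, adjusted p = 0.28). A near copy, Dnmt3c, lies next to Dnmt3b and an antisense transcript covers its start. The paper counted reads with htseq-count in its intersection-strict mode. Whether strand was used, and what became of reads that match both copies, is not stated, so the low count of Dnmt3b is uncertain. An antisense transcript also lies inside an intron of Dnmt3a, and its effect on the Dnmt3a count was not tested.

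Tet1 had the largest change of the 6 genes from 2 m to either later age (chr10:62804570-62887324, minus strand). Its protein carries a CXXC domain that binds CpG-rich DNA. Tet1 had 363, 367 and 190.6 normalized counts in the 2-m libraries, 57.9, 69.2 and 45.2 at 20 m, and 60.7, 55.2 and 35.9 at 28 m. The lowest young library was still well above the highest older one. Read numbers were 163 to 264 at 2 m, 31 to 83 at 20 m and 19 to 40 at 28 m. Tet1 fell by 2.36 ± 0.30 (SE) on the log2 scale to 20 months, a 5.12-fold decrease, and by 2.55 ± 0.30 to 28 months, a 5.85-fold decrease (limma, adjusted p = 0.00032 and 0.00019). The difference between 20 and 28 months, -0.19 ± 0.30, did not pass the test (limma, adjusted p = 0.88).

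Tet3 moved the same way but by less (chr6:83362373-83456392, minus strand). Tet3 also exists with and without a CXXC domain, which the gene counts do not separate. Normalized counts of Tet3 were 2013, 1919 and 1305 at 2 m, 1227, 1276 and 978 at 20 m, and 1061, 981 and 757 at 28 m. The lowest young value, that of the library numbered 3, was only slightly above the highest 20-m value. Tet3 fell by 0.57 ± 0.17 (SE) from 2 to 20 months and by 0.89 ± 0.17 from 2 to 28 months on the log2 scale (limma, adjusted p = 0.038 and 0.0048). The 20-m call was lost when the first or second 2-m library, any 20-m library or the second 28-m library was left out (adjusted p between 0.06 and 0.14), whereas the 28-m call was kept in each of these fits.

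Tet2 has no CXXC domain of its own and lies on chromosome 3 (chr3:133463677-133544390, minus strand). It had 1079, 1093 and 711 normalized counts at 2 m, 1369, 1206 and 861 at 20 m, and 1089, 824 and 808 at 28 m. All ages overlapped, and the log2 difference from 2 m was 0.25 ± 0.19 at 20 m and -0.07 ± 0.19 at 28 m (limma, adjusted p = 0.40 and 0.85).

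Across the family, 3 of the 6 genes fell and 0 rose from 2 to 20 months, where 16.6% of all tested genes passed the test, 7.13% as lower and 9.42% as higher. After rescaling to equal sums 1 of the 6, Tet1, passed at 20 m, beside 4.45% of all genes. From 2 to 28 months the same 3 fell and 0 rose, beside 13.8% of all genes, 6.24% as lower and 7.53% as higher. Between 20 and 28 months 0 of the 6 passed, by limma, edgeR or DESeq2, and 0 had an unadjusted p under 0.05 by any of the 3 tools, while 0.379% of all genes passed by limma, 0.212% as higher. For a single gene, the smallest two-sided p of an exact permutation test is 0.1 with 3 against 3 libraries, so that this test cannot pass 0.05 for a single pair of ages. With the 6 older libraries as 1 group, the same 3 genes passed, beside 20.1% of all genes and 8.92% as lower, and each reached the smallest p that 3 against 6 libraries allow (exact permutation test, p = 0.0119). That p can be reached only without overlap between the young and the older libraries. Among all tested genes, 9.6% had every older library below every young one, and 10.5% had every older library above.

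**Figure D1:**
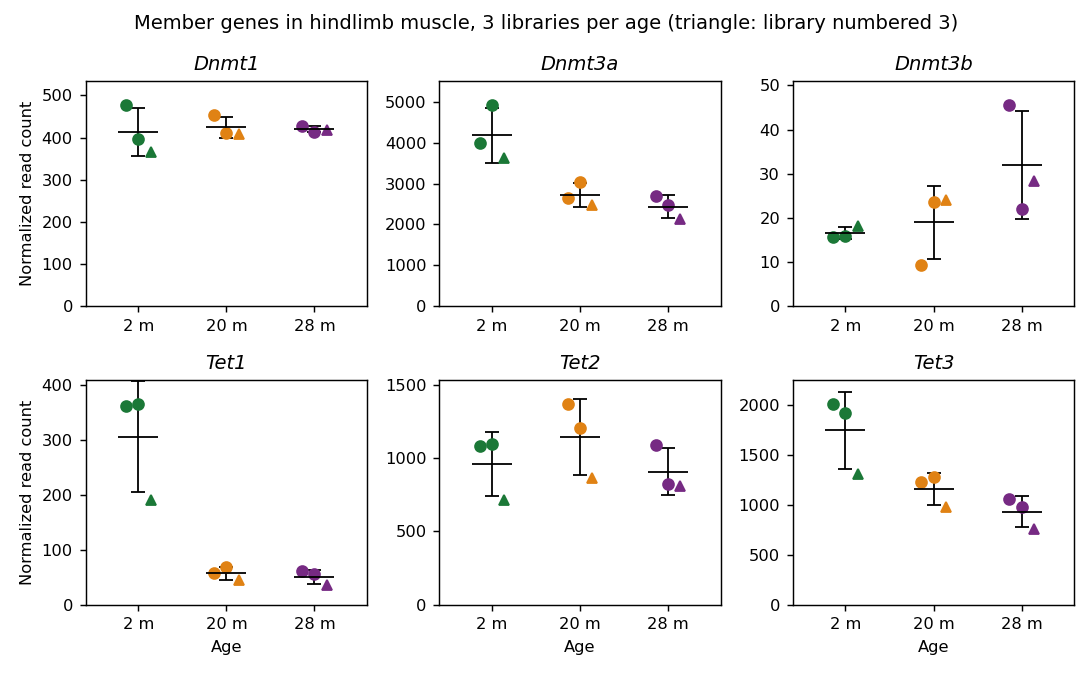
Normalized read count of each gene in hindlimb muscle by age, with 1 point per library, bars for the mean ± SD of 3 libraries, and triangles for the libraries numbered 3. Tet1 drops from between 190.6 and 367 at 2 m to at most 69.2 in the older libraries, Dnmt3a and Tet3 fall without overlap, and Dnmt1 and Tet2 overlap between ages.

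Since the libraries numbered 3 stood apart, the age differences were also taken within them and within the others. In the libraries numbered 3, after age was taken out, Tet3 was lower by a log2 difference of -0.46 (limma, adjusted p = 0.0058) and Tet2 of -0.47 (limma, adjusted p = 0.035), and Tet1 differed by -0.70 (limma, adjusted p = 0.072). The median of all genes differed by 0.01, and that of the 715 genes with transcripts over 8 kb by -0.10. The share of all genes that passed in this comparison was not recorded, so the members that passed have no background beside them. Within the libraries numbered 1 and 2, the log2 difference between 28 and 2 months was -0.78 for Dnmt3a, -2.63 for Tet1 and -0.95 for Tet3. Between the single libraries numbered 3 it was -0.77, -2.38 and -0.79. For 20 against 2 months the differences were -0.65, -2.51 and -0.65 in the first set and -0.54, -2.05 and -0.42 in the second, which has 1 library per age. All 3 genes were lower at both later ages in both sets.

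Without the first 2-m library, the log2 difference between 28 and 2 months was -0.80 for Dnmt3a, -2.40 for Tet1 and -0.78 for Tet3 (limma, adjusted p = 0.0056, 0.0016 and 0.026). Beside the counts of falling genes that follow, 7.13% of all genes fell at 20 m and 6.24% at 28 m. Of 8 marrow genes tested, 1 (Mpo) fell at both later ages, as did 1 of 5 bone and cartilage genes (Col2a1). Of 6 fibroblast genes, 4 fell at 20 m (Col1a1, Col3a1, Dpt and Pi16) and 3 at 28 m (Col1a1, Col3a1 and Dpt), and their summed count was 38373 to 70672 at 2 m, 19638 to 21992 at 20 m and 19775 to 26344 at 28 m. All 6 were above 0 in every library, and Col1a1, a collagen chain, fell by 3.34 on the log2 scale to 28 m (limma, adjusted p = 2.2e-05). Of 10 leukocyte genes, summed at 1859 to 2998 over all libraries, 1 of 7 tested fell at 20 m (Lyz2) and 0 at 28 m. Of 6 endothelial genes 0 passed in either comparison, and of 6 satellite cell genes 0 of 5 tested passed at 20 m and 1 (Chodl) fell at 28 m, while Pax7, the marker of quiescent satellite cells, passed only with both later ages as 1 group (-1.29, limma, adjusted p = 0.028). Of the 8 muscle fibre genes 1 (Pvalb, a calcium buffer of fast fibres) fell at both later ages. Satellite cell genes summed to 1655 to 2200 at 2 m and 1429 to 1795 later, and endothelial genes to 9893 to 13502 over all libraries. Dividing-cell genes summed to 486 to 591 in the 2-m libraries numbered 2 and 3, 452 to 518 at 20 m and 493 to 531 at 28 m, but to 1687 in the first 2-m library, and 1 of 7 tested (Top2a) fell at 20 m. The part of these cells in the falls of Dnmt3a, Tet1 and Tet3 was not tested.

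**Figure D2:**
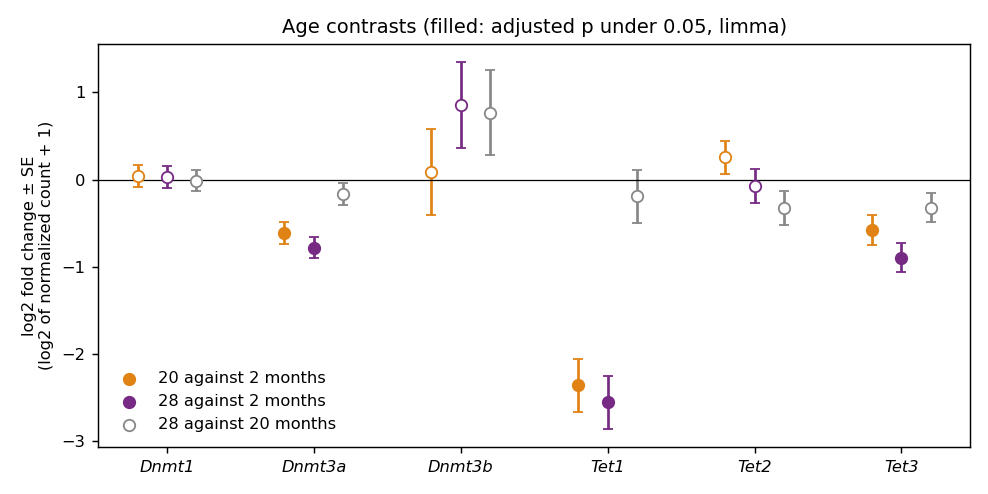
Log2 fold change ± SE of each gene in the 3 age contrasts, as fitted by limma to log2(normalized count + 1), with filled points for an adjusted p under 0.05. Tet1 sits at -2.36 and -2.55, Dnmt3a and Tet3 between -0.57 and -0.89, and every point of 28 against 20 months is open.

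Levels of different genes were compared as normalized count per kb of exon. In 2-m muscle the order was Dnmt3a (420 ± 67, SD, n = 3), Tet3 (149 ± 33), Tet2 (104 ± 24), Dnmt1 (65.3 ± 9.1), Tet1 (21.4 ± 7.0) and Dnmt3b (3.8 ± 0.31). Only Tet3 and Tet2 overlapped as neighbours in that order. At 20 m Tet2 (124 ± 28) stood before Tet3 (98.8 ± 14), again with overlap, and Tet1 (4.0 ± 0.84) had come down to the level of Dnmt3b (4.4 ± 1.9). At 28 m Dnmt3a remained first at 244 ± 29, Tet2 (98.6 ± 17), Tet3 (79.4 ± 13) and Dnmt1 (66.4 ± 1.0) followed with Tet2 overlapping Tet3 and Tet3 overlapping Dnmt1, and Tet1 was last at 3.5 ± 0.91, below each library of Dnmt3b (7.4 ± 2.8).

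The makeup of both sides thus shifted. Dnmt3a made up 85.7% of the summed writer level at 2 m (83.6 to 88.2% over libraries), 79.2% at 20 m (78.1 to 81.3%) and 76.7% at 28 m (74.6 to 77.9%). Dnmt1, whose own level did not pass the test, went from 13.5 to 19.5 and 21.0% of it. Among the erasers, Tet1 took 7.6% at 2 m (6.6 to 8.3%), 1.8% at 20 m (1.6 to 2.0%) and 1.9% at 28 m (1.6 to 2.2%). Tet2 went from 38.1 to 54.5 and 54.3%, and Tet3 from 54.3 to 43.8 and 43.8%. Shares of one sum are not independent of each other, and the values are given without a test.

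The ratio of summed writers to summed erasers overlapped between ages. As log2, it was 0.62, 0.87 and 1.08 in the 2-m libraries, 0.40, 0.62 and 0.83 at 20 m, and 0.71, 0.85 and 0.89 at 28 m. Writers therefore exceeded erasers in every library, by 1.32- to 2.11-fold, and the 3 ages overlapped. At each age the library numbered 3 had the highest ratio. Among the libraries numbered 3 alone, the 20-m value was the lowest and the 2-m value the highest. Without them, the mean difference was -0.23 from 2 to 20 months, where the ages still overlapped, and 0.27 from 20 to 28 months, where they did not. The mean log2 ratio was 0.85 ± 0.23 (SD, n = 3) at 2 m, 0.62 ± 0.22 at 20 m and 0.82 ± 0.09 at 28 m. Single ratios behaved otherwise. Dnmt3a over Dnmt1 went from 2.68 ± 0.28 to 2.03 ± 0.19 and 1.87 ± 0.16 as log2, with no overlap between 2 m and the later ages. Dnmt3a over Tet1 went from 4.35 ± 0.40 to 6.11 ± 0.17 and 6.14 ± 0.24, that is from 20.9-fold to 69.5- and 71.4-fold. Dnmt3a over Tet3, both of which fell, overlapped between ages at 1.51 ± 0.25, 1.47 ± 0.12 and 1.63 ± 0.09. Tet3 over Tet2 turned from 0.51 ± 0.05 to -0.32 ± 0.18 and -0.31 ± 0.18, and Dnmt1 over Tet2 was -0.66 ± 0.25, -0.87 ± 0.29 and -0.56 ± 0.22. The direction of the overall balance changed with the weight of the members. With each gene given the same weight, as the difference of mean log2 levels, the writers gained 0.74 on the erasers by 20 m and 1.23 by 28 m, in place of -0.24 and -0.04 for the sums.

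**Figure D3:**
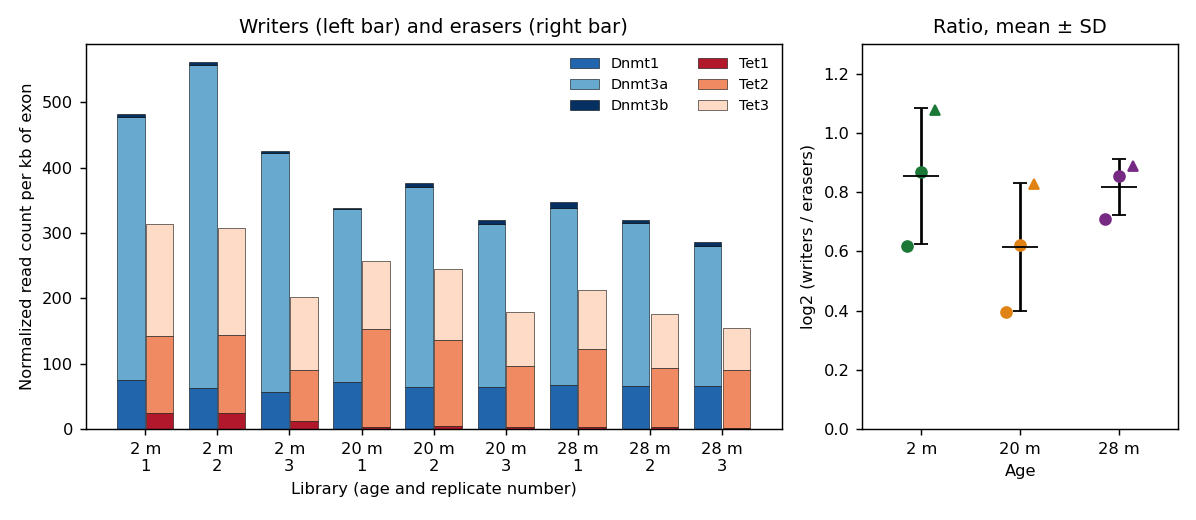
Left, normalized read count per kb of exon in each library, stacked over the 3 writers (left bar) and the 3 erasers (right bar). Right, log2 of the ratio of the stacks by age with mean ± SD of 3 libraries, where the ages overlap between 0.40 and 1.08 and triangles mark the libraries numbered 3.

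The 6 genes were then correlated with each other over libraries, as log2 values in 15 pairs. Over all 9 libraries 3 pairs passed (Dnmt3a with Tet1, Dnmt3a with Tet3, and Tet1 with Tet3, exact permutation test, adjusted over 15 pairs). In these pairs the 2-m libraries form a cluster of their own, so no pooled coefficient is given for the 12 pairs that hold Dnmt3a, Tet1 or Tet3. In the other 3 pairs, r was -0.21 for Dnmt1 with Dnmt3b (rho -0.13), 0.61 for Dnmt1 with Tet2 (rho 0.33) and -0.33 for Dnmt3b with Tet2 (rho -0.33), with exact permutation p of 0.59, 0.082 and 0.39 (rho: 0.74, 0.39 and 0.39) and adjusted p of 0.80, 0.31 and 0.66. Without the 2 libraries farthest from the median on the first gene, these r were -0.31, 0.46 and -0.29.

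Within the 6 libraries of 20 and 28 months, 2 pairs passed. Dnmt3a and Tet1 had r = 0.95 (exact permutation p = 0.0028, adjusted p = 0.042) and rho = 0.94 (p = 0.017, adjusted p = 0.12). Dnmt3a and Tet3 had r = 0.94 (exact permutation p = 0.0056, adjusted p = 0.042) and rho = 0.89 (p = 0.033, adjusted p = 0.12). Without the 2 libraries farthest from the median of Dnmt3a, r was 0.77 and 0.71 over the 4 that were left. As deviations from the mean of the own age over all 9 libraries, r was 0.99 for Tet1 with Tet3, 0.88 for Tet2 with Tet3 and 0.83 for Tet1 with Tet2, and r was 0.86 for Dnmt3a with Tet1. Permuting within ages gave exact p of 0.0093, 0.023, 0.023 and 0.032, and adjusted p of 0.12 for each. Of the 15 pairs 11 had r above 0, 4 an unadjusted p under 0.05 and 0 an adjusted one.

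These relations were weaker in part without the libraries numbered 3. The deviations then gave r of 0.69 for Tet1 with Tet3, 0.54 for Tet2 with Tet3, 0.06 for Tet1 with Tet2, 0.66 for Dnmt3a with Tet1 and 0.08 for Dnmt3a with Tet3, over the other 6 libraries. After each library was rescaled to the same sum, r was 0.88, 0.23, 0.22, -0.10 and 0.02 for the same pairs. Of these 5 pairs, only Tet1 with Tet3 kept an r above 0.6 in both. Within the 4 older libraries not numbered 3, r was 0.99 for Dnmt3a with Tet1 and 0.78 for Dnmt3a with Tet3, and within the 6 older libraries after rescaling it was 0.25 and 0.66.

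**Figure D4:**
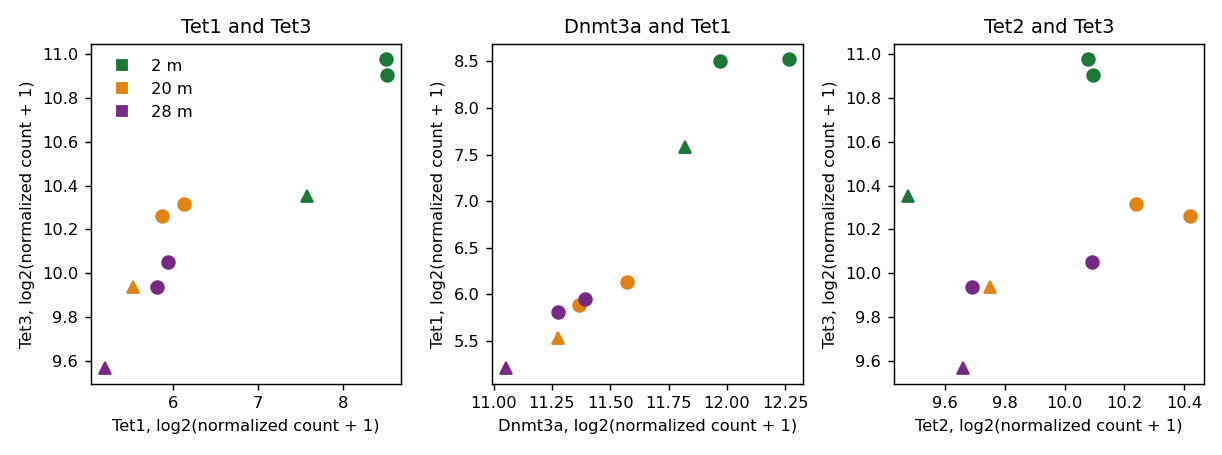
Log2 of the normalized count plus 1 for 3 pairs of genes, with 1 point per library coloured by age and triangles for the libraries numbered 3. The 2-m libraries form a cluster of their own for Tet1 with Tet3 and Dnmt3a with Tet1, and at each age the triangle is the lowest point on both axes.

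Genes whose pattern over the 9 libraries was most like that of each member were sought by Pearson's r among 11264 to 11265 genes with a mean count of at least 50. For Tet1 these included Mpnd (r = 0.98) and Jph2 (0.98), and for Dnmt3a they were Jarid2 (0.98), 2310040G24Rik (0.97) and Ntpcr (0.97). As deviations from the age means r was lower, at 0.81 and 0.67 for Mpnd and Jph2 and at 0.89, 0.84 and 0.84 for the 3 genes most like Dnmt3a. Jph2, which codes for a protein that holds the transverse tubule to the sarcoplasmic reticulum, had 49911 mean counts at 2 m, 28777 at 20 m and 27414 at 28 m. Jarid2, a partner of the Polycomb complex that methylates histone H3, went from a mean of 1420 to 1082 and 993. For Tet3 the nearest genes were Pdzd2 (0.99), 1500011K16Rik (0.98) and Kdm6b (0.97), the last a histone demethylase, with r of 0.97, 0.94 and 0.98 for the deviations. Those of Tet2 included Ank3 (0.96) and Ttll11 (0.96), those of Dnmt1 Zfp608 (0.93), Dgkd (0.87) and Car2 (0.84), and those of Dnmt3b Lpin2 (0.97), Ipo8 (0.94) and Dpy19l3 (0.93). With this many genes and 9 libraries, of which the young ones stand apart for Dnmt3a, Tet1 and Tet3, these coefficients are a description.

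Of 14 genes for proteins that guide or assist the writers, 12 could be tested. From 2 to 20 months 1 rose and 0 fell, beside 9.42 and 7.13% of all genes, and from 2 to 28 months 0 passed by limma, beside 13.8% of all genes. Their median log2 difference was 0.10 and 0.05, beside -0.02 and -0.01 for all genes. Setd2, which places the H3 lysine methylation that DNMT3 enzymes read in gene bodies, rose by 0.44 ± 0.11 (SE) at 20 m (limma, adjusted p = 0.020). Ehmt2, a histone methyltransferase, rose by 0.20 ± 0.06 with both later ages as 1 group (limma, adjusted p = 0.042). Uhrf1, which brings DNMT1 to newly copied DNA, had 109 normalized counts in the first 2-m library but 12.3 and 10.1 in the others of that age, 3.4 to 9.3 at 20 m and 1.9 to 11.3 at 28 m. Its log2 differences of -1.93 and -1.75 did not pass the test (limma, adjusted p = 0.18 and 0.25). Dnmt3l, the inactive cofactor of the de novo enzymes, had at most 1.8 normalized counts in any library and was listed at 0 in every library of 20 and 28 m. Setdb1, Trim28 and Hnrnpk, which the study examined as repressors of retroelements, did not pass the test in any contrast (0 of 3), with log2 differences from 2 m between -0.11 and 0.20.

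Of 12 genes that supply or clear the methyl donor, 2 rose and 2 fell at 20 m, beside 9.42 and 7.13% of all genes, and 0 passed at 28 m by limma, beside 13.8%. Mat2a, the enzyme that makes S-adenosylmethionine, fell by 0.53 ± 0.16 (SE) at 20 m (limma, adjusted p = 0.041), and Nnmt, which spends it on nicotinamide, fell by 1.14 ± 0.35 (limma, adjusted p = 0.041). Mtr, the methionine synthase, and Ahcyl2 rose by 0.39 ± 0.10 and 0.36 ± 0.09 (limma, adjusted p = 0.018 and 0.020). The median of the 12 was 0.06 at 20 m and 0.02 at 28 m.

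Among 12 partners of the erasers, 1 rose and 3 fell at 20 m, where 16.6% of all genes passed in either direction, and 2 rose and 3 fell at 28 m, where 13.8% did. The Gadd45 genes, stress-induced factors that have been linked to active demethylation, went apart. Gadd45a had 978 to 1320 normalized counts at 2 m, 925 to 1210 at 20 m and 2471 to 2748 at 28 m, and it rose by 1.26 ± 0.12 (SE) from 2 to 28 months and by 1.33 ± 0.12 from 20 to 28 months on the log2 scale (limma, adjusted p = 6.1e-05 and 0.00032). It was the 1 gene of all the lists to pass between 20 and 28 months. Gadd45b fell by 1.07 ± 0.25 and 1.38 ± 0.25 at the later ages (limma, adjusted p = 0.012 and 0.0031), and Gadd45g by 0.65 ± 0.18 and 1.28 ± 0.18 (limma, adjusted p = 0.026 and 0.00053). Cxxc5, a CpG-binding protein related to the CXXC domain of the TETs, fell by 0.80 ± 0.14 and 0.47 ± 0.14 (limma, adjusted p = 0.0021 and 0.040). Oga, listed under its older symbol Mgea5, which removes the sugar that OGT adds, rose by 0.38 ± 0.07 and 0.27 ± 0.07 (limma, adjusted p = 0.0037 and 0.024). Tdg, the glycosylase that excises oxidized cytosine, had only 7.2 to 36.1 normalized counts, and its log2 differences of 0.17 and 0.07 did not pass the test (limma, adjusted p = 0.88 and 0.96).

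TET enzymes need 2-oxoglutarate, and of 12 genes for its supply and for its inhibitors 2 rose and 1 fell at 20 m, and 1 rose and 2 fell at 28 m, so that 3 of 12 passed at each age, beside 16.6 and 13.8% of all genes. Idh2, the mitochondrial NADP-dependent isocitrate dehydrogenase, rose by 0.89 ± 0.17 (SE) and 0.87 ± 0.17 at the later ages (limma, adjusted p = 0.0043 and 0.0055), whereas the cytosolic form Idh1 differed by -0.35 ± 0.11 at 20 m (limma, adjusted p = 0.053) and fell by 0.43 ± 0.11 at 28 m (limma, adjusted p = 0.023). Ogdh, which consumes 2-oxoglutarate, rose by 0.30 ± 0.09 at 20 m (limma, adjusted p = 0.031), and Ldha fell by 0.40 ± 0.09 and 0.35 ± 0.09 (limma, adjusted p = 0.013 and 0.024). The genes of succinate and fumarate turnover (Sdha, Sdhb and Fh1) did not pass the test in any contrast.

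DNA methylation at the 6 genes themselves was read from MBD-seq, as the normalized count in the 500-bp bins that overlap 1 kb on either side of the start of the longest transcript. With 1 column per age and tissue the spread between muscle libraries cannot be given, and intervals cover counting error only. Promoter capture in 2-m, 20-m and 28-m muscle was 36.4, 16.0 and 29.3 for Dnmt3a, 31.8, 14.3 and 22.9 for Dnmt1, 98.2, 72.4 and 77.1 for Dnmt3b, 16.4, 25.3 and 30.0 for Tet1, 15.5, 14.3 and 17.2 for Tet2 and 25.5, 29.5 and 37.6 for Tet3. The median of 26178 promoters was 46.4, 47.2 and 56.7, so that 5 of the 6 lay below it at every age and Dnmt3b above it. Dnmt3b was the least expressed writer at each age. The Tet1 promoter lay below the median at every age, although Tet1 stood below Dnmt3b at 28 m (3.5 against 7.4 per kb of exon).

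With the window of 1 kb on either side and no rescaling, the promoters of the 3 genes whose RNA fell did not move together. From 2 to 28 months in muscle, the log2 change in promoter capture was -0.30 for Dnmt3a, 0.83 for Tet1 and 0.54 for Tet3, beside 0.20 for the median of all genes. It was -0.46 for Dnmt1, -0.35 for Dnmt3b and 0.15 for Tet2. None of the 6 passed 2-fold, while 28.6% of all promoters did. From 2 to 20 months Dnmt1 and Dnmt3a passed 2-fold downward (-1.10 and -1.14), where 11.2% of all promoters passed it in either direction, and Tet1 changed by 0.60. With the libraries rescaled to the same sum, the median of all promoters changed by 0.64 at 28 m, and Dnmt3a and Dnmt3b turned to 0.13 and 0.095, below that median, while Tet1 (1.28) and Tet3 (0.99) stayed above it. Over all annotated starts the 20-m changes of Dnmt1 and Dnmt3a were -0.11 and -0.35 and that of Tet3 turned to -0.18, and within 500 bp that of Tet1 turned to -0.18 and the 28-m change of Dnmt3a to 0.77. Tet1 (0.30) and Tet3 (0.95) also rose within 500 bp at 28 m, so that all 3 rose there, as they did rescaled. These muscle values rest on 17 to 121 reads per promoter and column. For Tet1 in muscle they were 18, 30 and 47 reads, with exact 95% Poisson intervals of 9.7 to 25.9, 17.0 to 36.1 and 22.01 to 39.8 normalized counts, so the intervals of 2 and 28 m overlap. For Dnmt3a and Tet3 the intervals of 2 and 28 m overlapped as well.

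In T cells the Tet1 promoter had 43.6 (31.6 to 58.8), 134 (110.0 to 161) and 79.3 (60.5 to 102) normalized counts at 2, 20 and 28 m. The summed values of the T cell columns exceeded those of muscle, so levels are set side by side and not compared between the tissues. The bin that holds the start had 2.0, 54.8 and 10.6 counts there, and 3.6, 0 and 3.8 in muscle. The adjoining upstream bin (chr10:62887501-62888000), in which the Tet1 stretch printed above lies, had 28.4, 73.0 and 62.1 counts in T cells and 12.7, 13.5 and 14.02 in muscle. Past 2-fold upward in T cells were Tet1 and Tet3 at 20 m (1.59 and 1.20), and Tet3 at 28 m (1.02), where 18.7 and 23.2% of all promoters passed it in either direction. Rescaled to the same sum, Tet3 changed by 0.91 and 0.70 and Tet1 by 1.302 and 0.53, and over all annotated starts Tet3 changed by 0.31 and 0.77 and Dnmt3a by 1.21 and 1.77. Within 500 bp of the start, Tet3 changed by 0 at both ages and Tet1 by 1.98 and 1.19. RNA of T cells was not analysed here.

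The starts of Dnmt3a and Tet3 were nearly free of capture. Capture was also low at the start bins of Dnmt1 and Tet2, which hold 47 and 45 CpGs. They had at most 2.73 and 0 counts in muscle and 2.43 and 2.03 in T cells. The 3 bins from the Dnmt3a start (chr12:3806501-3808000) hold 230 CpGs and had 0 reads in all 6 columns, which allows up to 2.73, 2.53 and 1.91 normalized counts per bin in muscle at 2, 20 and 28 m and 3.05, 3.65 and 3.97 in T cells (3 reads). The start bin and the adjoining upstream bin of Tet3 hold 59 and 66 CpGs and had at most 0.64 counts in muscle and 0 in T cells. No library of uncaptured DNA was used here, so loss of GC-rich fragments was not tested. Capture was higher on the flanks, of which 3 bins, chosen after their values were seen, are given. The bin 2 kb upstream of Dnmt3a (chr12:3804501-3805000, 6 CpGs) had 70.0, 45.5 and 35.1 counts in muscle and 103.5, 102 and 161 in T cells. That 2 kb upstream of Tet3 (chr6:83458001-83458500, 12 CpGs) had 117, 80.8 and 54.2 in muscle and 113, 152 and 174 in T cells, and that next to the Dnmt3b start (chr2:153648501-153649000, 10 CpGs) had 70.0, 39.6 and 30.6 in muscle and 80.2, 117 and 112 in T cells. These 3 bins fell with age in muscle, but other flank bins were higher at 28 m than at 2 m. The bin 4.5 kb upstream of Tet3 had 11.8, 10.1 and 24.9 counts in muscle, and that 2 kb upstream of Dnmt3b had 11.8, 24.4 and 26.1. Bin counts were not rescaled to the same sum, and the 28-m muscle column had the lowest sum.

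**Figure D5:**
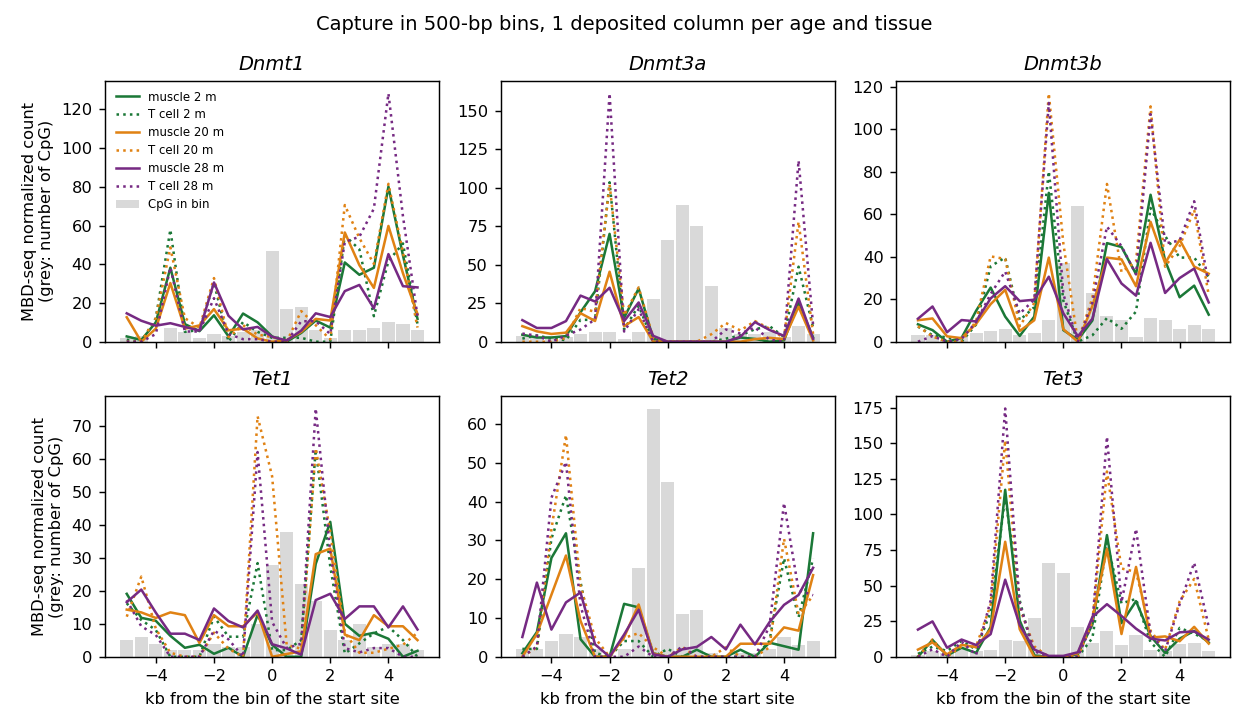
MBD-seq normalized count in 500-bp bins by distance from the bin of the start site, for muscle (solid) and T cells (dotted) at 3 ages, with 1 deposited column per line and grey bars for the number of CpGs in the bin. Capture is at or near 0 where CpGs are densest, and the bin 2 kb upstream of Tet3 goes from 117 to 80.8 and 54.2 in muscle.

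In gene bodies, taken from 1 kb past the start to the end of the gene, the 6 genes ranged from below the middle of all genes (Tet2 and Dnmt3a in muscle) to near the top. Dnmt1 was the most captured, with a mean of 66.0, 55.6 and 37.6 counts per bin in muscle at 2, 20 and 28 m, beside medians of 22.9, 21.2 and 19.2 over 20640 genes, and stood above 98.3 to 98.8% of them. In T cells Dnmt1 had 67.7, 81.0 and 97.9. Dnmt3a had 18.7, 15.7 and 17.0 in muscle, Dnmt3b 33.9, 30.7 and 25.5, Tet1 27.8, 26.5 and 20.8, Tet2 17.6, 15.6 and 15.7, and Tet3 27.6, 23.7 and 20.9. From 2 to 28 months all 6 bodies were lower in muscle, by log2 changes between -0.80 (Dnmt1) and -0.14 (Dnmt3a), beside -0.24 for the median of all genes. With the libraries rescaled to the same sum, the change was -0.36 for Dnmt1 and between 0.03 and 0.29 for the other 5, so that only the direction at Dnmt1 held under both scalings.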

How the data were processed

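RNA-seq was poly-A selected from hindlimb muscle of 9 mice, and MBD-seq was made from DNA pooled over 3 mice per age. Per the labels and methods, the authors used Trim Galore for trimming, Hisat2 for RNA-seq alignment (TopHat in the submitters' processing notes) and Bowtie2 for MBD-seq on mm10, and counted reads per gene with htseq-count or per 500-bp bin with bedtools. The deposited signal values are these counts divided by 1 DESeq2 size factor per library, and 100% of them were whole multiples of 1 step per library (within 1e-04 of a whole read for RNA-seq and 0.001 for MBD-seq), which gave back the reads. Whether counting used strand is not given in the sources used here. Lines that name no gene (37.9 to 47.7% of a library) stayed out of every sum and test.

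Ages were compared with limma 3.58.1 (limma-trend, R 4.3.3) on log2 of the value plus 1, over 9 libraries and 13178 genes with a mean of at least 10, with Benjamini-Hochberg adjustment over those genes and an adjusted p under 0.05. Fold changes of scarce genes are understated on that scale. For each single gene a two-sided exact permutation test was added. The recovered reads were also tested with edgeR 4.0.16 (quasi-likelihood) and DESeq2 1.42.0 as alternatives, which called 2200 and 2560 genes between 2 and 20 months. Levels per kb used the union of RefSeq exons on GRCm38 (4327 bases for Dnmt3b to 14354 for Tet1). Correlations used log2 values with exact permutation tests, two-sided, and ratios and MBD-seq were given without a test. The limma script was checked on counts with known changes.

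The members and lists were chosen with earlier results of these data known. Named are all 6 members, each list gene past the threshold in any contrast, Dnmt3l, Uhrf1 and Tdg, and the 3 genes most like each member, of which 2 are not reported here. Of the listed genes, 6 matched under an older symbol. The muscle MBD-seq columns do not name the round of capture they come from.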

Additional observations from a re-analysis of the deposited data

Results flagged for a closer look

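The values singled out here come from MBD-seq, where a change from 2 months went down in muscle and up in T cells at both 20 and 28 months. With 1 deposited column per age and tissue, whether muscle and T cells differ was not tested. At the Dnmt3b promoter the log2 change was -0.44 and -0.35 in muscle and 0.76 and 0.54 in T cells. In the gene body, Dnmt1 changed by -0.24 and -0.80 in muscle and by 0.25 and 0.52 in T cells. The body of Dnmt3a changed by -0.24 and -0.14 against 0.22 and 0.37, and that of Dnmt3b by -0.14 and -0.40 against 0.28 and 0.25. For the erasers the values were -0.068 and -0.40 against 0.30 and 0.20 for Tet1, -0.17 and -0.15 against 0.35 and 0.31 for Tet2, and -0.21 and -0.39 against 0.39 and 0.55 for Tet3. The median gene body moved the same way, by -0.11 and -0.24 in muscle and by 0.16 and 0.24 in T cells, and after rescaling to the same sum it changed by -0.0038 and 0.19 in muscle and by -0.11 and -0.07 in T cells. The opposite directions depended on the scaling, and after rescaling none was kept at both ages. They were kept at 28 months by the body of Dnmt1, and at 20 months by the Dnmt3b promoter and the bodies of Tet2 and Tet3. Rescaled, the Dnmt3b promoter changed by -0.33 and 0.095 in muscle and by 0.47 and 0.22 in T cells. The rescaled body changes in T cells were -0.034 and 0.20 for Dnmt1, -0.061 and 0.051 for Dnmt3a, -0.0033 and -0.07 for Dnmt3b, 0.017 and -0.11 for Tet1, 0.069 and 0.0028 for Tet2 and 0.10 and 0.23 for Tet3. In muscle they were then -0.36 for Dnmt1 and between 0.026 and 0.29 for the other 5 at 28 months. At 20 months they were -0.13 for Dnmt1, -0.14 for Dnmt3a, -0.033 for Dnmt3b, 0.041 for Tet1, -0.063 for Tet2 and -0.11 for Tet3. Ages of 3 libraries are too few for a test of single outlying values.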

How the results depend on the processing

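The falls of Tet1 and Dnmt3a held at 28 against 2 months under all 23 alternatives, as did that of Tet3. At 20 months Tet1 held under all, Dnmt3a was lost only when libraries were rescaled to the same sum (-0.60, adjusted p = 0.061), and Tet3 in 8 of 23 fits. Rescaling left 1 member called at 20 months, and leaving out 1 library left 2 to 3. Rescaling called 586, 554 and 24 genes between 2 and 20, 2 and 28, and 20 and 28 months, beside 2181, 1814 and 50, and leaving out the libraries numbered 3 called 1099, 712 and 11. Without 1 library these counts ranged from 1081 to 2231, 963 to 1846 and 14 to 88. Between 20 and 28 months the count was 103 with a term for the libraries numbered 3, 228 with DESeq2 and 76 with only the libraries of both ages.

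Mice of equal number are not stated to be paired, and only the libraries numbered 3 correlated above 0.1 (r = 0.109 to 0.161). With a replicate block 138 genes passed between 20 and 28 months, and 139 with edgeR, an alternative added after seeing the data, as were the ratio without the libraries numbered 3 (0.04 at 28 months) and the correlations in the older libraries. The block changed no call of a member.

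Signs of genes that were not called turned over. Without the libraries numbered 3, Dnmt1 differed by -0.0115 at 20 months, by -0.0481 at 28 and by -0.0298 with both as 1 group, and Dnmt3b by -0.0684 at 20. Rescaled, Dnmt1 differed by 0.012 between 20 and 28 months. Leaving out 1 library moved Dnmt1 between -0.0382 and 0.15 at 20 months, -0.0499 and 0.14 at 28, -0.0441 and 0.15 for both, and -0.0384 and 0.0383 between the later ages, Dnmt3b between -0.13 and 0.51 at 20 months, Tet1 between -0.35 and 0.0327 at 28 against 20, and Tet2 between -0.27 and 0.0368 at 28 and -0.11 and 0.20 for both.

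The log2 change of the ratio of writers to erasers was -0.24 at 20 and -0.04 at 28 months. As mean log2 levels it was 0.74 and 1.23 (0.49 between the later ages), without Dnmt3b and Tet3 -0.54 and -0.36, and without Dnmt3a and Tet2 0.76 and 1.123. Leaving out 1 library gave -0.36 to -0.13, -0.16 to 0.08 and 0.09 to 0.31. Of the pairs 3 passed over 9 libraries, against 0 as deviations from age means and 1 without the libraries numbered 3. The median promoter change of the 6 genes at 28 months in muscle was -0.08, 0.54 within 500 bp and 0.35 rescaled. In T cells it was 0.76 at 20 months (0.47 rescaled) and 0.20 at 28 (-0.11 rescaled, 0.65 over all starts). Where a value changed, the cause was not tested. Dnmt3b rests on 5 to 44 reads per library.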
